A study of Gallus gallus with 21 samples.

Results

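The non-visual opsins considered here are 5 genes of the chicken retina, OPN3, OPN4, OPN5, RGR and RRH, taken by their gene symbols from a table of normalized read counts that lists 18631 genes. All 5 symbols were listed. The retinas came from wild-type White Leghorn chickens, each fitted at 3 days of age with a lens of -10 dioptres. Such a lens moves the image plane behind the retina, and a young eye answers by growing longer, which is called lens-induced myopia. After 1, 3 or 6 days of lens wear the retina was taken and its total RNA, depleted of ribosomal RNA, was sequenced, with 7 libraries per duration and 21 in all. Every bird in the data used here wore a lens and was older the longer it wore it, so each comparison is between durations of wear and cannot be told apart from age. No hour of collection is given, so a difference in time of day between the groups cannot be told apart either.

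Opsins are receptors that hold a vitamin A aldehyde, retinal, as their light-catching part. The visual opsins drive image vision, whereas the non-visual opsins serve other uses of light. OPN4, melanopsin, couples to Gq proteins and phospholipase C and makes a class of retinal ganglion cells sensitive to light by themselves. OPN5, neuropsin, absorbs ultraviolet and violet light, is found in deep-brain photoreceptors of birds, and in mice has been linked to the entrainment of the retinal clock and to the restraint of eye growth by violet light. OPN3, encephalopsin or panopsin, is expressed in brain and many other tissues and its role in the retina is less settled. RGR and RRH (peropsin) bind all-trans-retinal; RGR turns it into the 11-cis form in light, in the pigment epithelium and in Müller glia, and RRH is known from the pigment epithelium of mammals.

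In the GRCg6a assembly, with coordinates as the deposited table lists them, OPN3 spans chr3:35912183-35931485 on the plus strand and OPN5 chr3:110092843-110119983, also on the plus strand. OPN4 spans chr6:3059653-3086510 on the plus strand and RGR chr6:3712791-3726524 on the minus strand. OPN4 and RGR lie 626 kb apart with 19 listed genes between them. RRH spans chr4:58101325-58112440 on the minus strand. OPN4 overlaps WAPL, a cohesin-release factor gene on the opposite strand, over 4807 bases, and the sources used here do not say whether reads were counted by strand. WAPL stood at means of 130, 132 and 154 CPM (read counts scaled to the library total) on days 1, 3 and 6, and its part in the OPN4 values was not tested.

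Libraries held an estimated 30.8 to 49.3 M reads, of which 9.94 to 15.3 M fell on listed genes. The tissue label was checked against markers. Summed over the listed markers, photoreceptors stood at 1019 to 1736 CPM, Müller glia at 1010 to 1329 CPM, amacrine cells at 423 to 552 CPM, bipolar cells at 337 to 424 CPM, horizontal cells at 259 to 333 CPM and ganglion cells at 182 to 255 CPM, and markers of blood and choroid at 12.4 to 24.5 CPM. Libraries with transcripts of the female W chromosome (HINTW, a W-linked gene, above 10 CPM) made up 4 of 7, 1 of 7 and 5 of 7 on days 1, 3 and 6, and the labels give no sex. Pairs of libraries of the same day differed by 6.71 to 27.1 times the variance that counting alone gives, over 63 pairs, so none looked like a library deposited more than once. The labels do not say which libraries come from different birds, and the p-values reflect the variation among the libraries, which may be technical.

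All 5 genes had a mean of at least 1 CPM and entered the test, limma on log2(CPM + 1) over 11072 genes, with Benjamini-Hochberg adjustment over all of them and a threshold of 0.05. A log2 change below is on that scale, which understates the change of low genes such as RGR and RRH. Depth differed widely among the 5. The estimated reads per library ran from 3307 to 5327 for OPN4, from 464 to 908 for OPN3, from 187 to 339 for OPN5, from 50 to 104 for RRH and from 28 to 535 for RGR. Gene lengths were not used here, so levels are compared between libraries and never between genes.

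On the CPM scale of this test, OPN4 rose between days 1 and 3 and OPN3 rose between days 3 and 6. OPN5 fell between days 1 and 6, and neither RGR nor RRH passed in any comparison of it. Each call was lost in some of the other settings given below. The OPN3 call was lost with other library scalings, and the OPN4 and OPN5 calls when some day-1 libraries were left out. In whole retina, more cells of a type and more RNA per cell cannot be told apart.

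OPN4 stood at 88.2, 96.1 and 114 CPM (lowest, median and highest of 7 libraries) on day 1. It stood at 108, 119 and 130 CPM on day 3, and at 93.7, 100.3 and 129 CPM on day 6. Day 3 was thus the highest day, with 5 of the 7 day-1 libraries below every day-3 library, although the ranges overlapped. The mean rose from 98.0 ± 9.77 (SD, n = 7) to 118 ± 8.70 CPM, a log2 change of 0.27 ± 0.07 (SE; 1.21-fold; limma adjusted p = 0.0420), and all 7 day-3 libraries lay above the day-1 mean. Between days 3 and 6 OPN4 changed by -0.17 ± 0.07 (adjusted p = 0.0987), and between days 1 and 6 by 0.10 ± 0.07 (adjusted p = 0.309). With median-of-ratios scaling, which sets the typical gene to no change, the difference between days 3 and 6 was -0.26 (adjusted p = 0.0206) and OPN4 passed the test as lower on day 6.

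The call for OPN4 between days 1 and 3 lies close to the threshold. It was lost when any one of day-1 replicates 1, 2, 3, 4 and 7 or day-3 replicates 1, 4, 5, 6 and 7 was left out, with adjusted p-values up to 0.0905 and log2 changes of 0.25 to 0.28. Day 1 holds libraries with code numbers 1 to 4 and 12 to 14. OPN4 stood at 88.2 to 98.9 CPM in the first set and at 96.1 to 114 CPM in the second, and against the second set alone the change was 0.16 (adjusted p = 0.364). Among libraries without W transcripts the change was 0.26 (adjusted p = 0.183).

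A second melanopsin gene, OPN4-1, which birds keep beside OPN4, did not take the same course. OPN4-1 had means of 73.9 ± 6.62, 68.3 ± 4.10 and 68.6 ± 4.11 CPM (SD, n = 7) on days 1, 3 and 6, and passed the test in no comparison (adjusted p = 0.328, 0.947 and 0.199 for day 3 against 1, day 6 against 3 and day 6 against 1). With median-of-ratios scaling it was lower on day 6 than on day 1 (-0.20, adjusted p = 0.0332). The ratio of OPN4 to OPN4-1 within a library does not depend on library scaling. It ran from 1.200 to 1.44 (median 1.36) on day 1, from 1.53 to 1.89 (median 1.75) on day 3 and from 1.36 to 1.73 (median 1.495) on day 6. Every day-3 library lay above every day-1 library, whichever code numbers the day-1 library carried.

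The mean log2 ratio of OPN4 to OPN4-1 was 0.39 higher on day 3 than on day 1 (1.31-fold; two-sided exact permutation test, p = 0.000583, the smallest that 7 against 7 can give; adjusted p = 0.00962 over 33 tests of 11 ratios). On day 6 it was 0.21 above day 1 (adjusted p = 0.0231 by the same exact test). The change of -0.18 from day 3 to day 6 did not pass (adjusted p = 0.0556, exact test). Leaving out single libraries, the day-3 difference ran from 0.36 to 0.42. These ratios were chosen after the values were seen, and a ratio shows that a pair of genes changed unequally, not which of them changed.

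**Figure D1:**
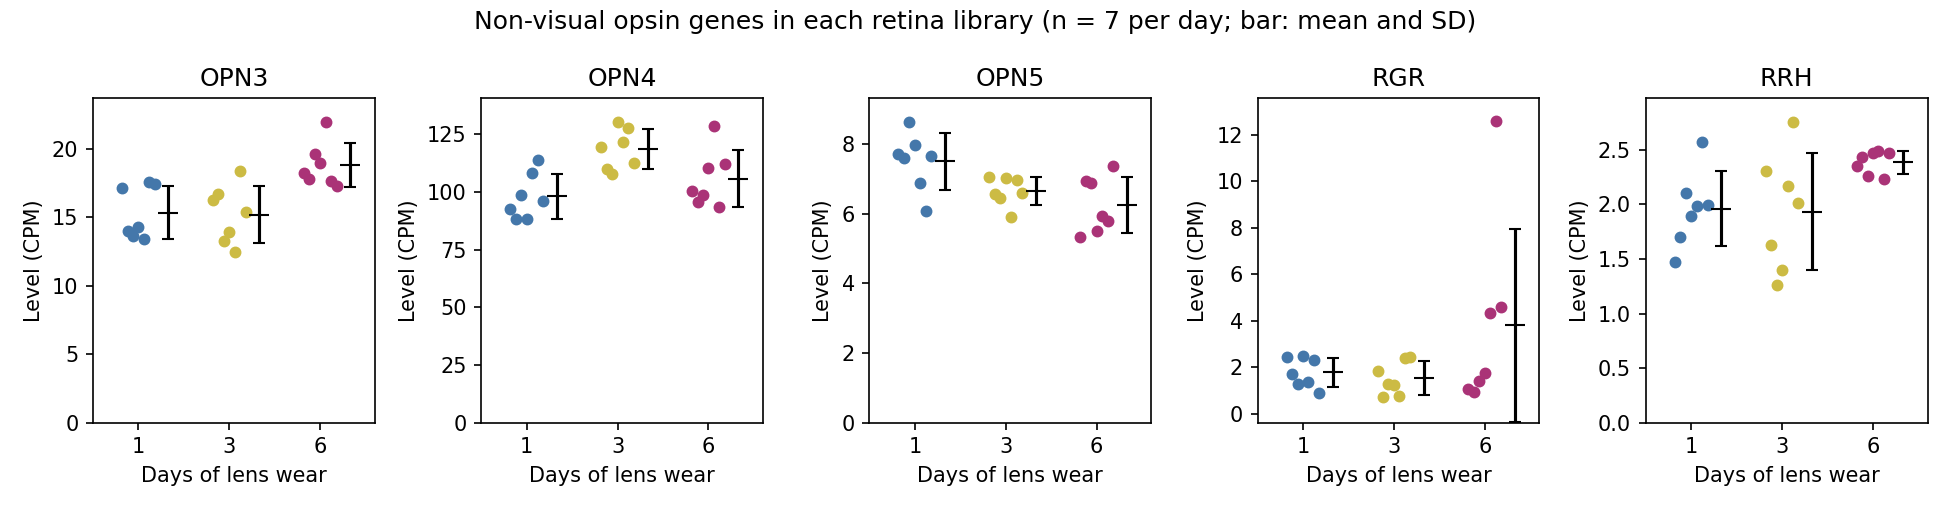
CPM of each non-visual opsin gene (y axes, 1 scale per gene, drawn from 0 except where the SD bar of RGR runs below it) against days of lens wear (x axes); points are libraries, 7 per day, and black bars give the mean and SD. OPN4 was highest on day 3 and OPN3 on day 6, OPN5 stood lower on day 6 than on day 1, and a single day-6 library carried RGR at 12.6 CPM.

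OPN3 was higher on day 6 than on either earlier day. It stood at 13.4, 14.3 and 17.5 CPM (lowest, median, highest) on day 1, at 12.5, 15.4 and 18.4 CPM on day 3 and at 17.3, 18.3 and 21.9 CPM on day 6. Of the earlier libraries, 5 of 7 on day 1 and 6 of 7 on day 3 lay below every day-6 library, while the rest overlapped with them. OPN3 rose by a log2 change of 0.30 ± 0.08 (SE, n = 7; 1.23-fold; limma adjusted p = 0.0148) between days 3 and 6 and of 0.28 ± 0.08 (1.21-fold; adjusted p = 0.0185) between days 1 and 6. All 7 day-6 libraries exceeded the mean of each earlier day. Between days 1 and 3 the change was -0.01 ± 0.08 (adjusted p = 0.952), with a 95% interval from -0.19 to 0.16.

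The OPN3 calls depended on scaling. The median of all tested genes was itself 0.08 higher on day 6 than on day 3 or day 1, on the log2 scale. With median-of-ratios scaling OPN3 differed by 0.21 (adjusted p = 0.0889) between days 3 and 6 and by 0.19 (adjusted p = 0.120) between days 1 and 6. Leaving out any single library left both calls in place on the CPM scale, with adjusted p-values up to 0.0383 and 0.0451.

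Ratios to the other members do not depend on scaling, and those to OPN4 and OPN5 passed in some comparisons while those to RRH and RGR passed in none. Mean OPN4 was itself lower on day 6 than on day 3 (106 against 118 CPM). Mean OPN5 was lower on day 6 (6.26 CPM) than on days 1 and 3 (7.51 and 6.66 CPM). The ratios that passed therefore do not show that OPN3 rose. The ratio of OPN3 to OPN4 ran from 0.103 to 0.152 on day 3 and from 0.154 to 0.199 on day 6, without overlap, and its mean was 1.40-fold higher on day 6 (exact permutation p = 0.000583, the smallest possible; adjusted p = 0.00962). The ratio of OPN3 to OPN5 ran from 1.57 to 2.88 on day 1, from 1.98 to 2.63 on day 3 and from 2.34 to 3.69 on day 6. Its mean was 1.48-fold higher on day 6 than on day 1 (adjusted p = 0.0231, exact permutation test) and 1.33-fold higher than on day 3 (adjusted p = 0.0247, same test). OPN3 to OPN4 did not pass between days 1 and 6 (1.14-fold, adjusted p = 0.125, exact test). OPN3 to RRH was 0.974-fold of day 3 and 0.998-fold of day 1 on day 6 (adjusted p = 0.839 and 0.985, exact test), and OPN3 to RGR 0.686-fold and 0.825-fold (adjusted p = 0.605 and 0.749, exact test).

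OPN5 declined over the 6 days. It stood at 6.09, 7.67 and 8.64 CPM (lowest, median, highest) on day 1, at 5.92, 6.61 and 7.08 CPM on day 3 and at 5.34, 5.95 and 7.39 CPM on day 6. The day-1 and day-6 ranges overlapped, with 5 of 7 day-1 libraries above every day-6 library. Between days 1 and 6 OPN5 fell from 7.51 ± 0.816 to 6.26 ± 0.802 CPM (SD, n = 7), a log2 change of -0.23 ± 0.07 (SE; 0.852-fold; limma adjusted p = 0.0218), and all 7 day-6 libraries lay below the day-1 mean. The steps of -0.15 ± 0.07 between days 1 and 3 (adjusted p = 0.278) and -0.08 ± 0.07 between days 3 and 6 (adjusted p = 0.409) did not pass on their own.

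The fall of OPN5 between days 1 and 6 was larger with median-of-ratios scaling (-0.31, limma adjusted p = 0.00345). It was also larger among libraries with W transcripts, a split added after seeing the data (-0.30, limma adjusted p = 0.0226), where the mean went from 7.51 to 5.91 CPM. In libraries without W transcripts the mean was 7.51 CPM on day 1 (n = 3) and 7.14 CPM on day 6 (n = 2), and the difference between both kinds of library was not tested. Leaving out any single library kept the adjusted p at or below 0.0498. On day 1, however, OPN5 stood at 7.61 to 8.64 CPM in the libraries coded 1 to 4 and at 6.09 to 7.67 CPM in those coded 12 to 14. Against the latter alone the change was -0.12 (adjusted p = 0.371).

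The ratio of OPN4 to OPN5 was higher on day 3 than on day 1. It ran from 11.1 to 18.7 (median 12.02) on day 1 and from 16.7 to 20.5 (median 17.0) on day 3, and its mean was 1.36-fold higher on day 3 (adjusted p = 0.0313, exact permutation test). Of the 7 day-1 libraries 6 lay below every day-3 library, and the exception carried the highest OPN4 and the lowest OPN5 of that day.

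**Figure D2:**
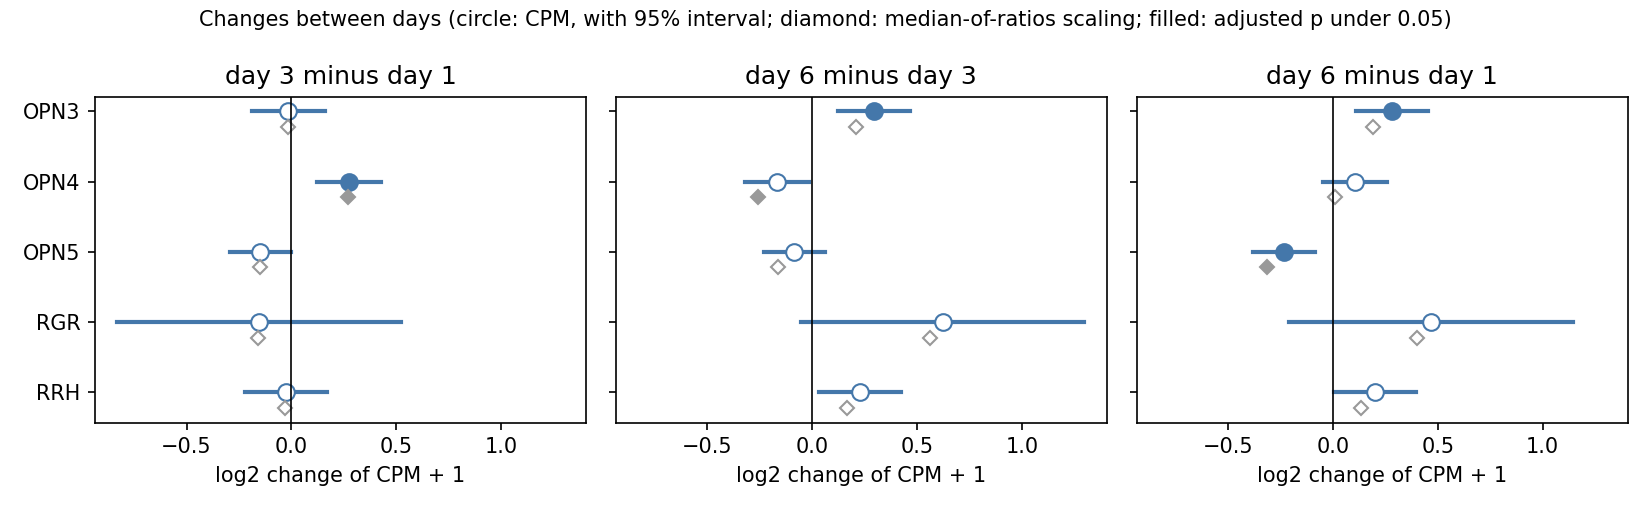
Log2 change of CPM + 1 (x axes) for each member (y axis) in the 3 comparisons of days; circles and lines are estimates and 95% intervals on the CPM scale, grey diamonds the estimates with median-of-ratios scaling, and filled symbols have an adjusted p under 0.05. Filled circles stand at OPN4 for day 3 against 1, at OPN3 for day 6 against both earlier days and at OPN5 for day 6 against 1, and the intervals of RGR are the widest of the 5.

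RRH had its narrowest range on day 6. It stood at 1.47, 1.99 and 2.57 CPM (lowest, median, highest) on day 1, at 1.26, 2.02 and 2.76 CPM on day 3 and at 2.23, 2.43 and 2.49 CPM on day 6. The coefficient of variation was 17.5%, 27.7% and 4.48% on these days, beside 11.4%, 12.1% and 10.4% for counting error alone at 50 to 104 reads per library. The day-6 spread is thus below what counting at this depth gives on average. The spread itself was not tested. RRH differed by 0.23 ± 0.09 (limma adjusted p = 0.0819) between days 3 and 6, by 0.20 ± 0.09 (adjusted p = 0.121) between days 1 and 6 and by -0.03 ± 0.09 (adjusted p = 0.922) between days 1 and 3. All 7 day-6 libraries lay above both earlier means, and the day-6 range fell inside that of day 1 and that of day 3.

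RGR was the most variable member. It stood at 0.899, 1.70 and 2.48 CPM (lowest, median, highest) on day 1, at 0.735, 1.28 and 2.45 CPM on day 3 and at 0.951, 1.76 and 12.6 CPM on day 6. On day 6 the libraries coded 46, 47, 48 and 51 held 1.05, 0.951, 1.41 and 1.76 CPM, and those coded 53, 54 and 55 held 4.33, 12.6 and 4.61 CPM. The first 4 lay within the range of the earlier days and the last 3 above all 14 earlier libraries. The log2 changes were -0.15 ± 0.33 (adjusted p = 0.850) between days 1 and 3, 0.62 ± 0.33 (adjusted p = 0.167) between days 3 and 6 and 0.47 ± 0.33 (adjusted p = 0.305) between days 1 and 6. Without the library coded 54, the replicate 6 of day 6, the last 2 were 0.32 and 0.16.

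The spread of RGR exceeded counting error. Its residual SD around the day means was 0.67 on the log2 scale, 6.16 times the counting SD at its depth, and 62 of 11072 tested genes had a larger residual SD. The median gene stood at 0.16. For the other members the residual SD was 0.16 (OPN3), 0.14 (OPN4), 0.13 (OPN5) and 0.18 (RRH), which is 2.93, 6.15, 1.69 and 1.68 times their counting SD.

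RGR is known from pigment epithelium and Müller glia, so markers of both stand beside it. Of 12 pigment epithelium markers, all were listed, 8 had a mean under 1 CPM, none was at 0 in every library, and their sum was 54.9 to 84.0, 56.0 to 70.2 and 58.5 to 76.1 CPM on days 1, 3 and 6. Most of that sum came from RLBP1, which is also in the Müller glia list, MITF and OCA2. The 8 low markers (BEST1, TTR, TYR, TYRP1, DCT, PMEL, MLANA and SLC45A2) summed to 1.34 to 4.11, 1.36 to 3.58 and 1.23 to 5.00 CPM. In the libraries coded 53, 54 and 55 the sum of all 12 was 76.1, 72.3 and 70.6 CPM, above the other 4 libraries of day 6 (58.5 to 69.7 CPM). These 3 were set apart by their RGR values (4.33, 12.6 and 4.61 CPM), so their contrast with the other 4 is a description only. The highest sum of all libraries, 84.0 CPM, lay in the day-1 library coded 4, with RGR at 2.48 CPM. The sum of the 8 low markers was 5.00, 2.77 and 3.39 CPM in these 3 and 1.23 to 2.88 CPM in the other 4. RPE65, the isomerase of the pigment epithelium, stood at 4.13, 3.27 and 4.29 CPM in the 3 and at 1.54 to 3.29 CPM in the 4, and reached 7.04 CPM in a day-1 library whose RGR was 2.48 CPM. The Müller glia sum was 1132, 1162 and 1327 CPM in the 3 and 1030 to 1160 CPM in the 4. All listed genes together held 33.2, 33.2 and 33.3% of the CPM scale in the 3 and 31.7 to 32.9% in the 4. The part of that difference in the marker sums was not tested. The part of either cell type in the RGR values was not tested.

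**Figure D3:**
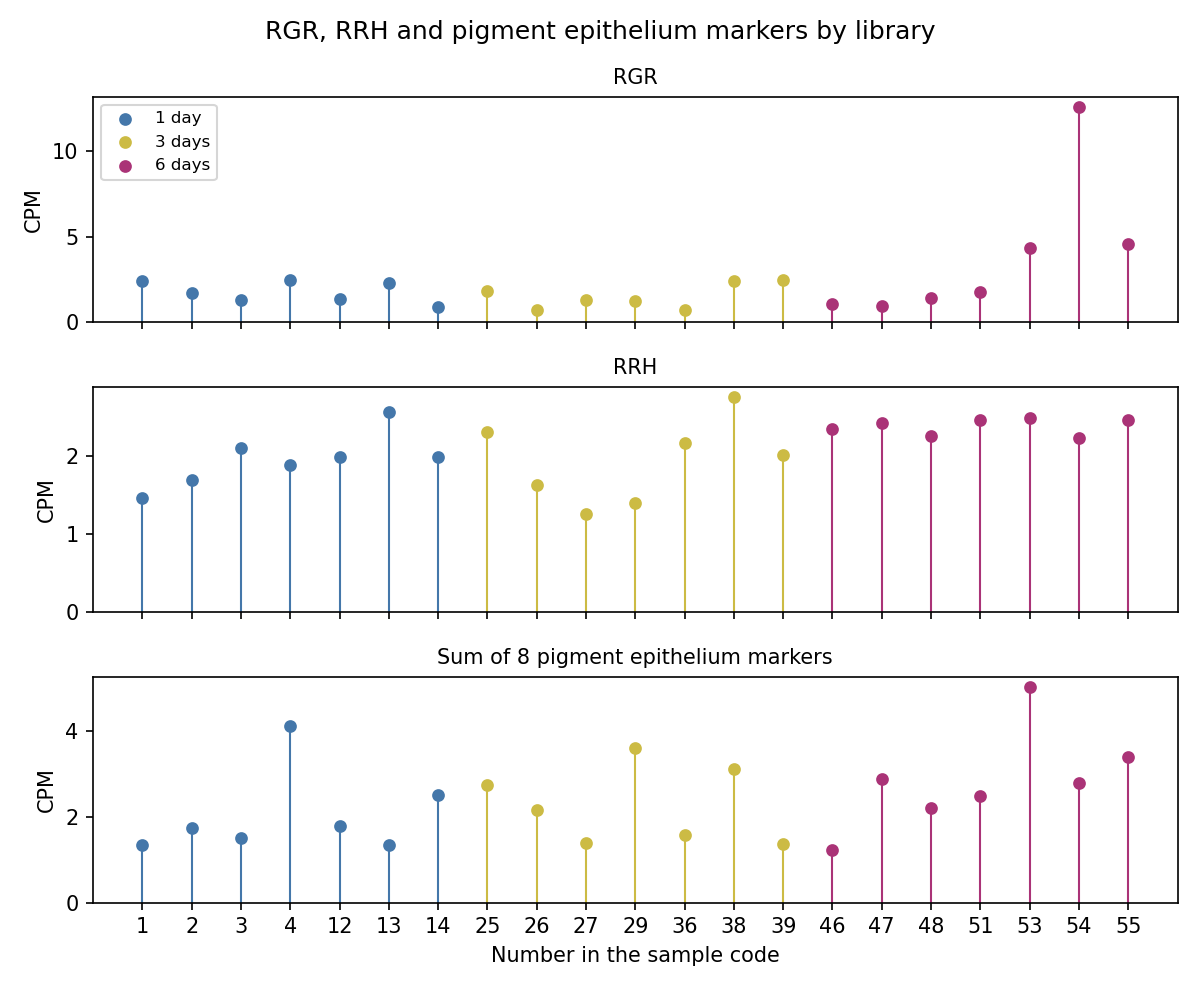
CPM (y axes, from 0) of RGR, RRH and the summed 8 low pigment epithelium markers in each of the 21 libraries, ordered by the number in the sample code (x axis) and coloured by days of lens wear. RGR reaches 4.33, 12.6 and 4.61 CPM in the libraries coded 53, 54 and 55, where RRH stays between 2.23 and 2.49 CPM and the marker sum between 2.77 and 5.00 CPM.

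Set against all genes, the members' counts read as follows. Between days 1 and 3, 1 of 5 members rose and 0 fell, where 3.31% of all tested genes passed (1.67% higher and 1.63% lower). Between days 3 and 6, 1 of 5 rose and 0 fell, where 22.8% passed (19.4% higher and 3.44% lower). Between days 1 and 6, 1 of 5 rose and 1 fell, where 24.3% passed (19.8% higher and 4.46% lower). In the F test over all days 3 of 5 members passed, OPN3 (adjusted p = 0.0149), OPN4 (adjusted p = 0.0220) and OPN5 (adjusted p = 0.0431), beside 29.7% of all tested genes. The F call of OPN3 was lost with median-of-ratios scaling (adjusted p = 0.110) and with scaling to listed genes (0.0646), that of OPN4 without the day-1 codes 1 to 4 (0.141), and that of OPN5 in 5 settings (0.0504 to 0.431). A count of 1 rise in 5 where 19.4 or 19.8% of all genes rose is at the background. The higher share was itself tied to scaling: of the genes called between days 3 and 6, 84.9% were higher on the CPM scale, 62.5% after scaling to the listed genes and 49.8% with median-of-ratios scaling. Between days 1 and 6 these shares were 81.6%, 54.7% and 46.4%. Listed genes held 30.7 to 31.2% of the CPM scale on day 1 and 30.3 to 32.2% on day 3. On day 6 they held 31.7 to 33.3%, above every day-1 library. The part of this difference in the members' changes on the CPM scale, such as the rise of OPN3, was not tested. The median change of the 5 members was -0.03, 0.23 and 0.20 in the 3 comparisons, beside -0.00, 0.08 and 0.08 over all tested genes.

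**Figure D4:**
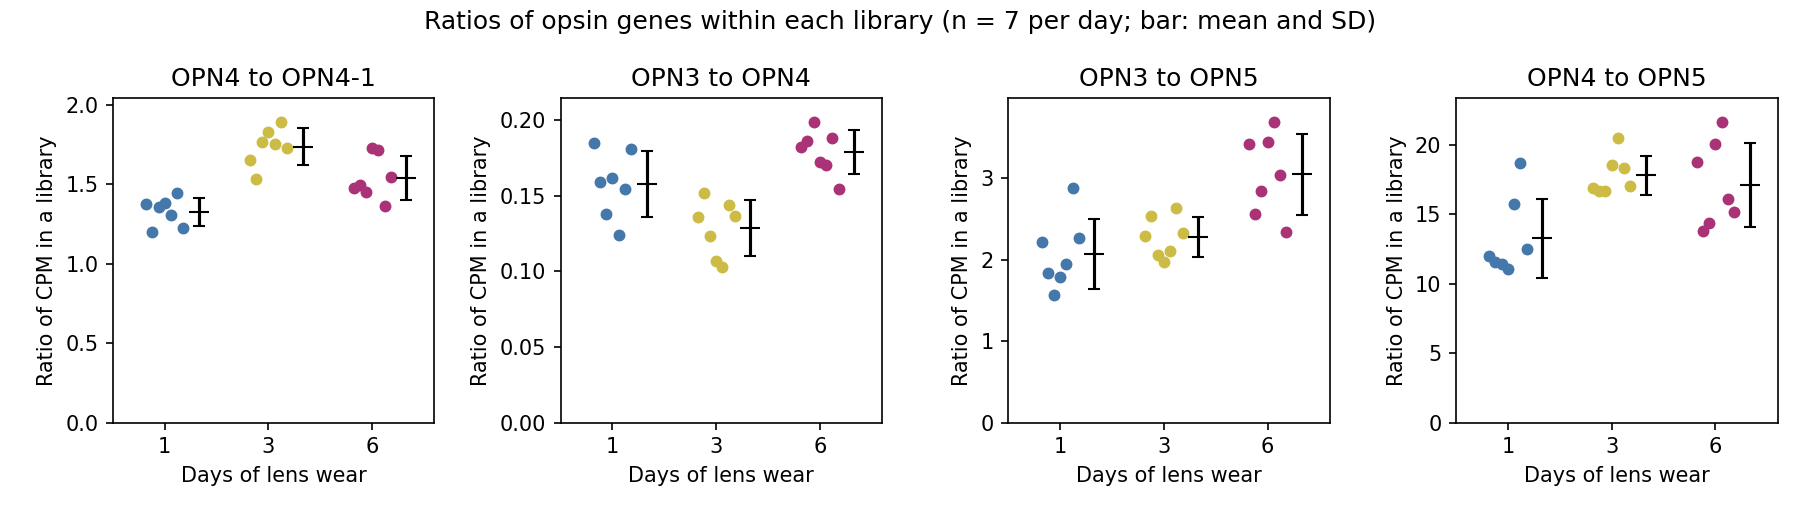
Ratios of the CPM of opsin genes within a library (y axes, from 0) against days of lens wear (x axes); points are libraries, 7 per day, and bars give the mean and SD. The OPN4 to OPN4-1 ratio on day 3 (1.53 to 1.89) lies wholly above day 1 (1.200 to 1.44), and the OPN3 to OPN4 ratio on day 6 (0.154 to 0.199) wholly above day 3 (0.103 to 0.152).

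Of the other ratios, 2 more passed, each with RRH. OPN4 to RRH was lower on day 6 than on day 3 by 0.52 on the log2 scale (-0.52; adjusted p = 0.0192, exact permutation test). OPN5 to RRH was lower on day 6 than on day 1 (-0.57; adjusted p = 0.0247, exact permutation test). No ratio that holds RGR passed in any comparison.

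No pair of members was shown to vary together from library to library within days. Over the 10 pairs, Pearson's r of residuals from the day means ran from -0.24 to 0.46 and none passed a permutation test within days after adjustment. OPN4 and RRH came nearest, with r = 0.46 (permutation p = 0.0167, adjusted p = 0.167) and a Spearman rank correlation of 0.57 (permutation p = 0.00549, adjusted p = 0.0549). Without the 2 libraries whose OPN4 residual lay farthest from the median residual, r was 0.40.

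The genes with the most similar course over the 21 libraries are given as a description. They have the highest Pearson's r among the tested genes whose symbol does not begin with LOC. Unlike the r of the member pairs, this r is pooled over the days, so differences between days enter it. With the day means removed, r of the genes named here ran from 0.53 (APELA) to 0.88 (ARHGDIG). For OPN3 they were NUP107 (r = 0.87), CITED4 (0.85) and ALMS1 (0.82), and for OPN4 GABRR3 (0.74), RPL35A (0.73) and MED28 (0.73). For OPN5 they were TRAF3 (0.78), FAM210B (0.70) and APELA (0.69), and for RRH ARHGDIG (0.88), TUBB4B (0.87) and ATP5L (0.86). For RGR they were CUEDC1 (0.80), SERF2 (0.77) and GALNT11 (0.76). Without the 2 libraries farthest from the median RGR level these values were 0.57, 0.72 and 0.58. The same step for each other member gave values from 0.63 (APELA) to 0.85 (ATP5L). The libraries share their depth and scaling with both genes of a pair.

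Other opsins took courses of their own. The cone pigments OPN1LW, OPN1MSW and OPN1SW were higher on day 6 than on day 3, and the first 2 also passed between days 1 and 6. OPN1SW lay near the filter, which it passed only through days 1 and 6, with means of 1.12, 0.516 and 1.42 CPM on days 1, 3 and 6. Its difference between days 1 and 6 did not pass (0.19, limma adjusted p = 0.362). OPN1LW went from 129 ± 62.8 to 224 ± 68.7 CPM (SD, n = 7; log2 change 0.87, limma adjusted p = 0.01003). LOC771085, which RefSeq pairs with the synonym tmtops2 and which belongs to the teleost multiple tissue opsins, relatives of OPN3, stood at 8.20 to 9.45 CPM on day 1, at 6.17 to 9.31 CPM on day 3 and at 6.43 to 7.66 CPM on day 6. Its day-1 and day-6 ranges did not overlap and it fell by a log2 change of -0.25 (adjusted p = 0.00916), while OPN3 rose between the same days on the CPM scale. With median-of-ratios scaling the fall of LOC771085 was kept (-0.33, limma adjusted p = 0.000855) and the OPN3 call was lost (limma adjusted p = 0.120). OPN5L1, a relative of OPN5, had means of 1.56, 1.76 and 1.37 CPM and passed in no comparison on the CPM scale, while with median-of-ratios scaling it was lower on day 6 than on day 3 (-0.29, adjusted p = 0.0186). OPN2SW, OPNP, OPN5L2 and OPNVA lay under the filter, with day means of at most 0.468 CPM.

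Counts of the genes that opsins signal through are read against the shares of all tested genes, 3.31% between days 1 and 3, 22.8% between days 3 and 6 and 24.3% between days 1 and 6. Of 17 tested genes of Gq light signalling, the melanopsin route, 0 passed between days 1 and 3, a count that so low a share does not set apart. Between days 3 and 6, 2 rose and 2 fell, near the background, and between days 1 and 6, 2 rose and 1 fell. ITPR1, the calcium release channel opened by inositol trisphosphate, rose from 132 ± 4.75 to 153 ± 3.03 CPM between days 3 and 6 (SD, n = 7; limma adjusted p = 0.00209). TRPC7, a cation channel of the family that carries the melanopsin current in mice, rose from 4.99 ± 0.463 to 6.32 ± 0.420 CPM between days 1 and 6 (adjusted p = 0.00396). PRKCB, a protein kinase C, rose between days 3 and 6 (0.24, adjusted p = 0.00526). The genes named here were chosen by the F test, and the genes that fell are not among them. The median change of the list was -0.02, 0.03 and -0.02. With median-of-ratios scaling 0 rose and 4 fell between days 3 and 6, so that the ITPR1 and PRKCB calls of that interval were lost. Between days 1 and 6 with that scaling, 2 rose and 4 fell.

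Of 18 genes of Gi/o and Gs signalling, 1 rose between days 1 and 3, 4 between days 3 and 6 and 4 between days 1 and 6, and none fell, where 19.4% and 19.8% of all genes rose in the last 2. With median-of-ratios scaling 1 rose between days 3 and 6, and 1 rose and 2 fell between days 1 and 6. GNB1, a G protein beta subunit, rose from 121 ± 12.03 to 160 ± 12.6 CPM between days 1 and 6 (SD, n = 7; adjusted p = 0.000563 by limma). RGS7 and RGS11, which speed the switching-off of G proteins, both rose between days 1 and 6 (adjusted p = 0.0471 and 0.0233), and both calls were lost with median-of-ratios scaling. RGS7 also rose between days 1 and 3 (limma adjusted p = 0.0394, and 0.0461 with median-of-ratios scaling). RGS11 also rose between days 3 and 6 (limma adjusted p = 0.00657, and 0.0229 with that scaling). Of 8 receptor kinases and arrestins, which end opsin signalling, 2 fell between days 1 and 3, 2 rose between days 3 and 6, and 1 rose and 1 fell between days 1 and 6. With median-of-ratios scaling 3 fell, then 1 rose, and 1 fell between days 1 and 6. GRK7, the cone opsin kinase, fell from 191 ± 13.6 to 129 ± 17.9 CPM between days 1 and 3 (adjusted p = 0.000211). GRK3, a receptor kinase of wide expression, fell from 41.0 to 35.6 CPM and then rose to 47.9 CPM (adjusted p = 0.0340 and 5.81e-05).

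Retinoid handling, which supplies and recycles the retinal that all these opsins bind, changed in single genes. RBP4, the carrier of retinol in blood, fell from 205 ± 43.6 CPM on day 1 to 73.0 ± 16.7 CPM on day 3 and rose to 127 ± 24.2 CPM on day 6 (SD, n = 7; limma log2 change -1.48, adjusted p = 1.52e-05, then 0.80, adjusted p = 0.00136). ABCA4, which clears retinal from photoreceptor discs, rose from 180 ± 16.8 to 237 ± 7.67 CPM between days 1 and 3 (adjusted p = 0.000211). BCO2, a carotenoid-cleaving enzyme, rose between days 1 and 6 (0.41, adjusted p = 0.00111). Of 16 tested genes of the list, 1 rose and 1 fell between days 1 and 3, 1 rose between days 3 and 6 (22.8% of all genes passed), and 2 rose and 3 fell between days 1 and 6 (24.3%). With median-of-ratios scaling 1 rose and 2 fell between days 3 and 6, and the other counts were as given.

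Light reaches circadian clocks through opsins, and clock genes changed in both directions. Of 18 tested clock genes 4 rose and 5 fell between days 1 and 3, where 3.31% of all genes passed. Between days 3 and 6, 4 rose and 1 fell (22.8% of all genes), and between days 1 and 6, 6 rose and 4 fell (24.3%). ARNTL, the core activator, went from 25.4 to 40.8 and 47.4 CPM, and CRY2, a core repressor, from 46.9 to 35.7 and 46.04 CPM on days 1, 3 and 6. NFIL3, a repressor of clock output, rose from 25.5 to 50.3 CPM between days 1 and 3 (limma adjusted p = 0.000105). The labels give no hour of collection, so clock time and lens wear cannot be told apart.

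Markers of cells that could hold these opsins are counted beside the same shares of all genes, 3.31%, 22.8% and 24.3%. Of 10 ganglion cell markers 0 passed between days 1 and 3, 2 rose between days 3 and 6 and 0 passed between days 1 and 6. Of 5 markers of melanopsin ganglion cells 4 were under the filter. The tested one was ADCYAP1, which encodes the peptide PACAP. It stood at 0.894 ± 0.219 CPM on day 1 and at 1.72 ± 0.970 CPM on day 6 (SD, n = 7; limma adjusted p = 0.0291). That call was lost with median-of-ratios scaling (adjusted p = 0.0502), and its difference between days 1 and 3 did not pass (adjusted p = 0.446). ADCYAP1 passed the filter only through its later days, so its rise is partly built into that choice. The 5 markers summed to 1.93, 2.14 and 2.51 CPM (lowest, median, highest) on day 1 and to 1.71, 2.70 and 3.19 CPM on day 3. On day 6 they summed to 1.98, 3.07 and 5.96 CPM. Their part in the OPN4 values was not tested. Of 7 Müller glia markers 1 rose between days 3 and 6 and 1, VIM, fell between days 1 and 6. Of 4 tested pigment epithelium markers 1, MITF, rose between days 3 and 6 (adjusted p = 0.0333), and its call was lost with median-of-ratios scaling (adjusted p = 0.245). Of 7 horizontal cell markers CALB1 fell between days 1 and 3 and rose between days 3 and 6, of 7 amacrine cell markers 0 passed in any comparison, and of 5 bipolar cell markers 1 rose and 1 fell between days 3 and 6. The 1 tested marker of blood and choroid passed in no comparison. With median-of-ratios scaling 0 ganglion cell, 0 Müller glia and 0 bipolar cell markers rose between days 3 and 6, and 1 amacrine cell and 1 bipolar cell marker fell. Between days 1 and 6 with that scaling, 1 ganglion cell, 1 Müller glia, 1 horizontal cell, 3 amacrine cell and 3 bipolar cell markers fell.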

How the data were processed

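Values are CPM that the authors deposited, per the submitters' processing notes made with STAR and Partek on GRCg6a; the sources used here give no versions or settings. Per the labels' protocols, stranded libraries were made from total RNA depleted of ribosomal RNA. An offset of 0.0001 on every deposited CPM value was subtracted. Read numbers were estimated by taking each library's most frequent low CPM value, 0.0203 to 0.0324, as 1 read. Low values were whole multiples of it, within 0.1, in 94.1 to 94.7% of cases, so whole reads are not claimed. Listed genes hold 30.3 to 33.3% of the scale.

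All 21 libraries entered a limma 3.58.1 fit (R 4.3.3; eBayes, trend and robust off) of log2(CPM + 1), 1 mean per day, with 18 residual degrees of freedom and 2-sided tests, for all genes that averaged 1 CPM or more. Ratios used exact permutation tests and relations 100000 within-day permutations (Python 3.11.15, scipy 1.17.1). The fit was tested on simulated data. The members and gene lists were chosen with earlier results of these data known. Named genes are the members, the 3 genes most like each, other listed opsins, and up to 3 genes per list with the lowest F test p among those called; other marker genes were named for their levels. Some genes that the rule names are not reported here. Gene names and chromosomes came from the table and RefSeq, which matched all 5 members. Spread expected from estimated reads covers counting error only.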

Additional observations from a re-analysis of the deposited data

Results flagged for a closer look

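RGR in the day-6 library coded 54 stood at 12.6 CPM, far above the other 6 libraries of that day (0.951 to 4.61 CPM). The gap to the next library was 0.686 of the whole range of the group, on the CPM scale and not on the log2 scale of the tests. It was the 1 value so marked among 15 groups of 7 libraries, and chance marks about 1 in 20. A count of 1 among 15 is near that rate. In that library RRH was 2.23 CPM, RPE65 3.27 CPM, the 8 low pigment epithelium markers 2.77 CPM in sum and the Müller glia markers 1162 CPM in sum. CUEDC1 (9.82 CPM) and GALNT11 (29.3 CPM) were at their highest of the 21 libraries there. Both were chosen for their likeness to RGR over these same libraries. That choice favours genes that are high in this library, so their levels are no separate evidence.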

How the results depend on the processing

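Of 190 pairwise member results under 14 other settings, 175 kept their direction and side of the threshold, 12 lost a call, 3 gained one and 0 called results reversed; 5 uncalled values changed sign. OPN4 between days 1 and 3 lost its call without a filter (0.27, adjusted p = 0.0541), with a filter of 0.25 CPM (0.27, 0.05002), with only the 2 days compared (0.27, 0.0539), without day-1 codes 1 to 4 (0.16) and, added after seeing the data, among libraries without W transcripts (0.26). OPN3 lost its calls with median-of-ratios scaling (0.21 from day 3 to 6, 0.19 from day 1 to 6) and scaling to listed genes (0.23 and 0.21), and for day 6 against 1 also without codes 1 to 4 (0.22) and among libraries with W transcripts (0.27, also added later). OPN5 for day 6 against 1 lost its call without codes 1 to 4 (-0.12). OPN4 for day 6 against 3 gained one with median-of-ratios (-0.26) and listed-gene scaling (-0.23), and RRH for day 6 against 1 with only the 2 days compared (0.20, adjusted p = 0.0407). The cause was not tested.

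Leaving out single libraries, OPN4 ran from 0.25 to 0.31 for day 3 against 1 and from -0.22 to -0.14 for day 6 against 3, where it was called without day-6 replicate 5, and RRH from 0.17 to 0.29 for day 6 against 3, where it was called without day-3 replicate 6. The F test call of OPN5 was lost in 12 of 21 such fits, and 8 member calls of the F test were lost under other settings, 5 of them for OPN5. Genes called moved from 2691 to 1505 (day 6 against 1, without codes 1 to 4) and 1553 (with W transcripts), and from 366 to 626 (day 3 against 1, without codes 12 to 14), 230 (only the 2 days) and 227 (without W transcripts). Terms for W transcripts or the code letter changed no pairwise member call. No paired analysis was possible because the code numbers are not shared between days. All members passed the filter, so the planned test for members under it did not apply.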
